A study of Caenorhabditis elegans with 24 samples.

Results

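The comparison described here asks what elt-2 RNAi changed in Caenorhabditis elegans of the strain VC3201 that were already on cco-1 RNAi. It rests on 6 of the 24 libraries of the study, chosen by their labels: 3 of VC3201 worms on cco-1 and elt-2 RNAi mixed, and 3 of VC3201 worms on cco-1 RNAi. The table holds 16927 genes, and 14561 were tested, those whose group mean reached 1 CPM in 1 or more groups of the study. The study sequenced polyA-enriched RNA of whole worms, of VC3201 and of the wild-type strain N2, with 3 libraries for each strain on both RNAi, on either RNAi alone, and on control bacteria. The labels call VC3201 an atfs-1 mutant and give no allele.

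In all the groups RNAi feeding began at the first larval stage, L1, and worms were collected after 2.5 days at 20 °C, as fourth-stage larvae (L4) or young adults. Both VC3201 groups therefore carry the mutant background and received cco-1 RNAi, and they differ in elt-2 RNAi. The labels give the mixture as cco-1 and elt-2 RNAi at 50% each, and the cco-1 group as cco-1 and control RNAi at 50% each. The authors' key sheet gives 25% for elt-2 RNAi. Feeding exposes the whole animal to RNAi, so neither knockdown was aimed at 1 tissue. Whether the 3 replicates of a group were grown apart is not stated, so a p-value covers only the spread between these samples, which may be technical.

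ELT-2 is a GATA-type transcription factor that acts throughout intestinal life and activates genes for digestion, yolk synthesis, lysosomes and defence. cco-1, now also named cox-5B, encodes a cytochrome c oxidase subunit, and its RNAi is a standard way to impair the worm's respiratory chain. ATFS-1 drives the mitochondrial unfolded protein response, which raises chaperones, proteases and import factors of mitochondria under stress.

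Values below are in CPM, counts scaled to a common total after the authors' quantile normalization. Changes are log2 fold changes of CPM + 1, both RNAi over cco-1 RNAi, with their standard error (SE). They were tested with limma, with Benjamini-Hochberg adjusted p-values over all genes tested, and a gene rose or fell at an adjusted p under 0.05. This scale understates changes of genes near 1 CPM, and a gene with no read in a library still has a small CPM above 0 after quantile normalization. Reads ranked back from tied low values put 1 CPM at 38 reads in each library with both RNAi, against 17 to 19 reads in the libraries with cco-1 RNAi.

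The targeted genes were examined first. elt-2 (WBGene00001250, chromosome X, 10481240 to 10483441 in WBcel235) stood at 9.62, 5.14 and 12.4 CPM with both RNAi, against 18.7, 16.9 and 21.1 CPM with cco-1 RNAi. The groups did not overlap, and elt-2 fell (-1.05, SE 0.208, adjusted p = 4.08e-05). cco-1 (WBGene00000371) stood at 71.2, 67.0 and 63.96 CPM with both RNAi, against 112, 127 and 135 CPM with cco-1 RNAi (-0.88, SE 0.0766, adjusted p = 2.08e-11). The target of the RNAi that both groups received was thus itself lower once elt-2 RNAi was added. With elt-2 RNAi cco-1 also fell in N2 on cco-1 RNAi (-0.80) and in VC3201 without cco-1 RNAi (-0.37). The change did not differ between the strains past the threshold (-0.08, adjusted p = 0.55). In VC3201 it was larger on cco-1 RNAi than without it (-0.51, adjusted p = 0.000446). atfs-1 (WBGene00013878) averaged 27.3 ± 1.35 CPM with both RNAi and 26.2 ± 2.77 CPM with cco-1 RNAi (SD, n = 3 each, as for every ± below), with overlapping ranges (0.06, adjusted p = 0.357). Without replicate 1 of the cco-1 RNAi group its difference passed the threshold (0.14, adjusted p = 0.0386).

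Adding elt-2 RNAi changed most of the measured transcriptome. Of the 14561 genes tested, 5316 rose (36.5%) and 6491 fell (44.6%), together 81.1%. Counts of gene lists below stand against these shares, and a list near them is not set apart by its counts. At least 2-fold, 2131 genes rose (14.6%) and 1721 fell (11.8%), together 26.5%. The median change of all genes tested was -0.10. With the normalization partly undone, 6067 genes rose and 5971 fell, so the excess of lowered genes depended on scaling. The libraries of the groups did not overlap for 82.5% of genes. Genes raised at least 2-fold had median levels of 22.8 CPM with both RNAi and 5.78 CPM with cco-1 RNAi. Genes lowered at least 2-fold had median levels of 3.80 CPM with both RNAi and 15.99 CPM with cco-1 RNAi. The extremes lay more on the lowered side, where 50 genes changed by -5 or further, while 21 genes changed by 5 or more. In the authors' deposited table, 5789 genes were raised and 6699 lowered at the same threshold in the same comparison. Those counts are over all 16927 genes, not only the 14561 tested here. Of the genes called both there and here, 11643 had the same sign and 0 the opposite sign. Both analyses used the same libraries, so this match is no separate evidence.

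**Figure D1:**
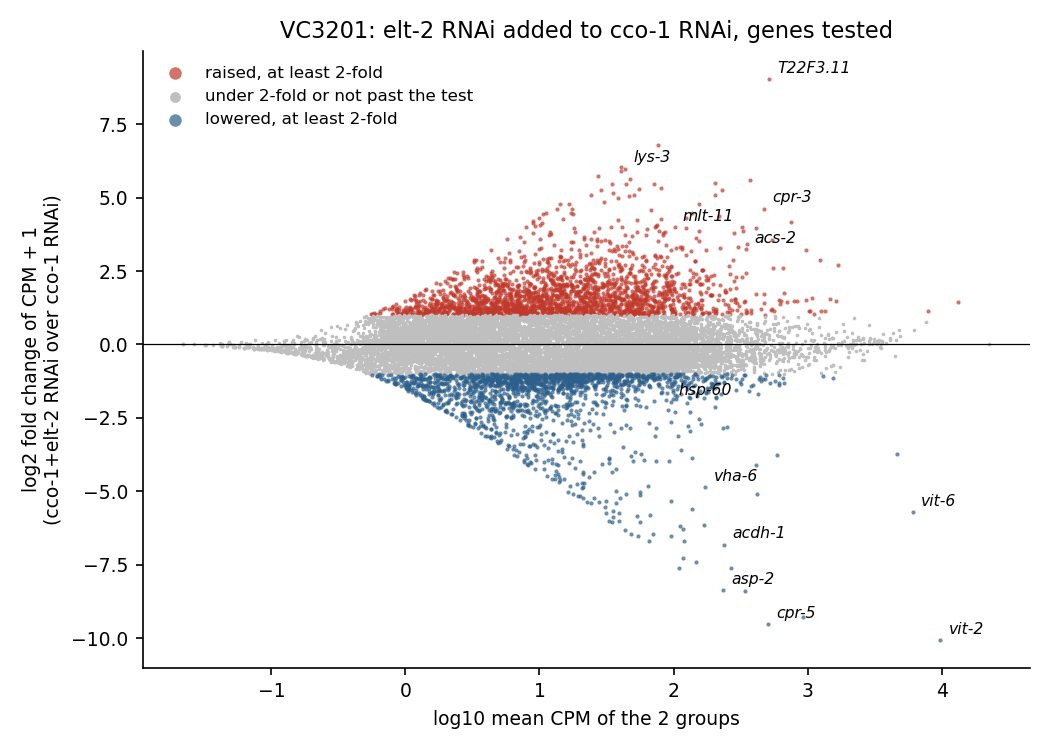
Each point is 1 of the 14561 genes tested, with the log10 of its mean CPM over the groups on the x axis and its log2 fold change of CPM + 1, both RNAi over cco-1 RNAi in VC3201, on the y axis. Red points rose and blue points fell at least 2-fold at an adjusted p under 0.05, and the lowest points, vit-2 and cpr-5 at -10.05 and -9.50, lie farther from 0 than T22F3.11, the highest, at 9.04.

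The gene raised most was T22F3.11 (WBGene00020700, chromosome V, 3612158 to 3614553), which stood at 1030, 976 and 1089 CPM with both RNAi, against 0.637, 1.14 and 1.16 CPM with cco-1 RNAi (9.04, SE 0.120, adjusted p = 1.17e-30). It was thus low with cco-1 RNAi, at 11, 22 and 20 reads, and among the abundant transcripts with both RNAi. The next was tsp-1 (chromosome III, 8238001 to 8239423), which encodes a tetraspanin membrane protein, at 159, 142 and 160.3 CPM with both RNAi, against 0.318, 0.407 and 0.505 CPM with cco-1 RNAi (6.78, SE 0.125). Its neighbour and relative tsp-2 averaged 68.7 ± 4.16 CPM with both RNAi and 0.588 ± 0.217 CPM with cco-1 RNAi (5.46).

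The lysozyme gene lys-3 (chromosome V, 10282100 to 10283544) was also among the 12 genes raised most, at 89.5, 83.1 and 88.0 CPM with both RNAi, against 0.204, 0.608 and 0.391 CPM with cco-1 RNAi (5.98, SE 0.157). Members of the pals family, a large worm family linked to the response to intracellular pathogens, held ranks 3 and 6. C17H1.5 (pals-4, chromosome I, 13113487 to 13116434) averaged 80.3 ± 2.497 CPM with both RNAi and 0.234 ± 0.139 CPM with cco-1 RNAi (6.05). C17H1.4 (pals-3, chromosome I, 13107492 to 13114188) stood at 56.4, 49.2 and 57.1 CPM with both RNAi, while the libraries with cco-1 RNAi held 1 read of it in all. From the reads at 1 CPM, the ratio of C17H1.4 was about 2927 (95% exact Poisson interval 525 to 115600, for counting error only). These neighbours overlap on opposite strands. Whether counting used strand is not given in the sources used here, so reads of one may be counted for the other.

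The remaining genes of the 12 were the C-type lectin gene clec-233, at 94.4 ± 1.03 CPM with both RNAi and 0.943 ± 0.325 CPM with cco-1 RNAi (5.63), and C23G10.11, C07E3.3, ZK1037.6, W02A2.9 and B0507.10 (ddn-1), with log2 fold changes of 5.92, 5.60, 5.48, 5.47 and 5.47. C07E3.3 was the most abundant of these, at 784, 685 and 709.9 CPM with both RNAi, against 14.04, 11.4 and 16.8 CPM with cco-1 RNAi.

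**Figure D2:**
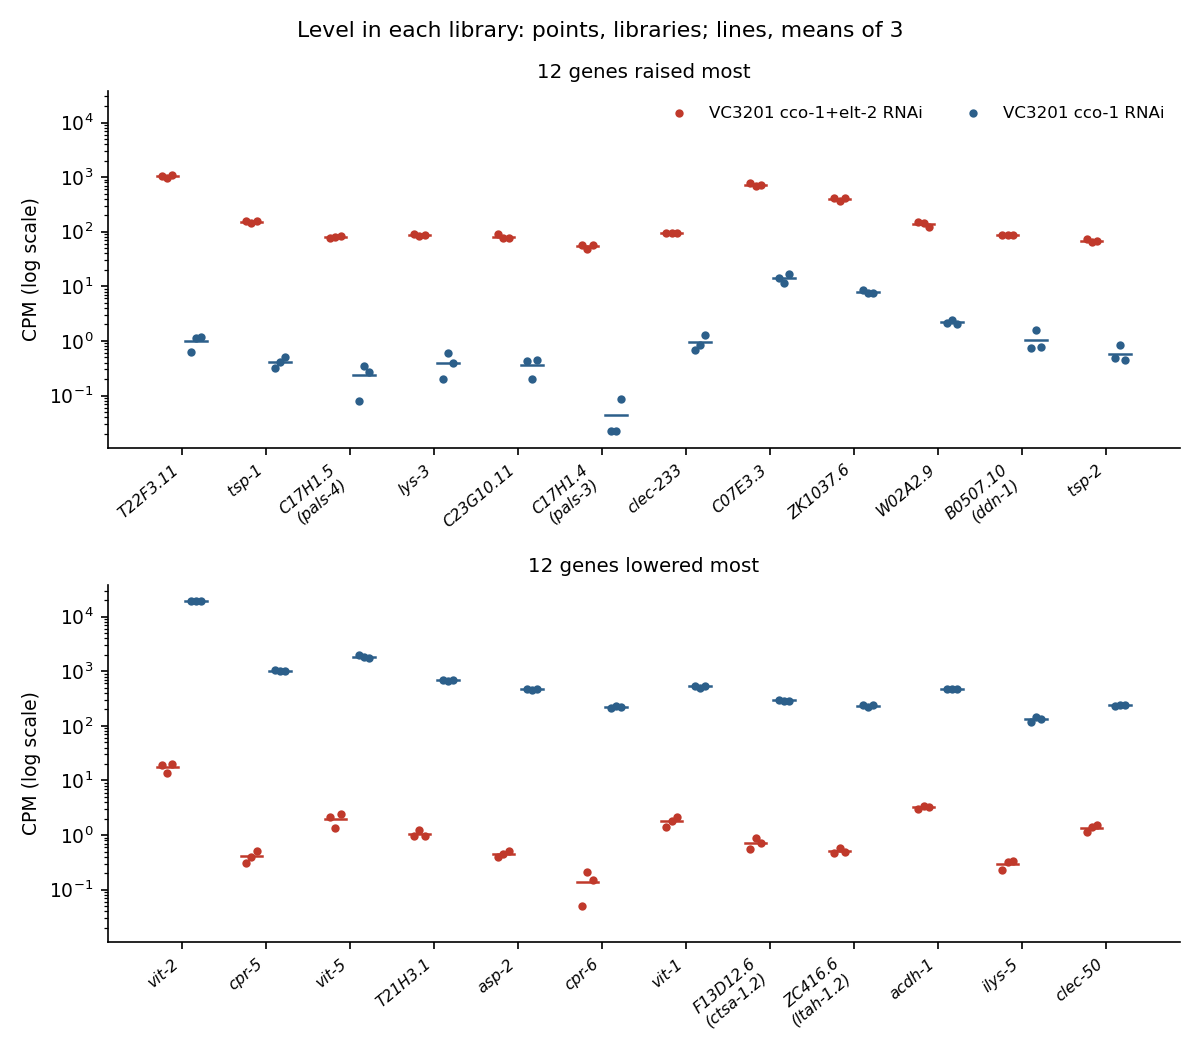
CPM on a log scale in each library for the 12 genes raised most and the 12 lowered most. Red points are VC3201 libraries with both RNAi, blue points VC3201 libraries with cco-1 RNAi, and lines are means of 3; T22F3.11 averaged 1032 CPM with both RNAi and 0.977 CPM with cco-1 RNAi, and cpr-5 averaged 0.406 CPM with both RNAi and 1019 CPM with cco-1 RNAi.

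Among lowered genes, those of yolk proteins and lysosomal proteases led. The yolk protein gene vit-2 (chromosome X, 5101042 to 5106169) stood at 19.04, 13.8 and 20.00 CPM with both RNAi, against 19460 CPM in every library with cco-1 RNAi (-10.05, SE 0.0961, adjusted p = 5.15e-34). That equal value was set by the quantile normalization, which gives each rank the same CPM, so its spread is no measure of error. All 6 yolk protein genes fell, with a median of -6.69. vit-5 stood at 2.17, 1.33 and 2.47 CPM with both RNAi, against 1997, 1787 and 1738 CPM with cco-1 RNAi (-9.28), and vit-1 averaged 1.79 ± 0.342 CPM with both RNAi and 533 ± 25.5 CPM with cco-1 RNAi (-7.59). vit-6, the yolk gene on chromosome IV, kept the highest level, at 209.8, 237 and 235.3 CPM with both RNAi, against 11960 CPM in each library with cco-1 RNAi (-5.71). Together the yolk genes took 234 to 262 CPM with both RNAi, against 33910 to 34180 CPM with cco-1 RNAi. The vit genes on chromosome X have similar sequences, so reads may be split among them.

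Of 22 cathepsin and aspartyl protease genes, for digestive and lysosomal enzymes, 15 fell and 6 rose, with a median of -2.301. The cathepsin B gene cpr-5 (chromosome V, 1132598 to 1134036) stood at 0.312, 0.395 and 0.512 CPM with both RNAi, against 1046, 1002 and 1010 CPM with cco-1 RNAi (-9.50, SE 0.0777, adjusted p = 2.04e-35). Its low values came from 10, 13 and 18 reads. The aspartyl protease gene asp-2 averaged 0.449 ± 0.0616 CPM with both RNAi and 471 ± 12.55 CPM with cco-1 RNAi (-8.35), and cpr-6 averaged 0.137 ± 0.0808 CPM with both RNAi and 219.7 ± 8.98 CPM with cco-1 RNAi (-7.60). F57F5.1 (cpr-9) averaged 23.3 CPM with both RNAi and 814 CPM with cco-1 RNAi (-5.08). A gene of the same family went the other way: cpr-3 stood at 901, 922 and 892 CPM with both RNAi, against 33.9, 39.7 and 34.2 CPM with cco-1 RNAi (4.62, SE 0.0636). Thus cpr-3 was the abundant one of this pair with both RNAi, and cpr-5 with cco-1 RNAi.

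Outside that list, the 12 genes lowered most held F13D12.6 (ctsa-1.2), related to cathepsin A, at 0.723 ± 0.160 CPM with both RNAi and 292 ± 4.75 CPM with cco-1 RNAi (-7.41). ZC416.6 (ltah-1.2), related to leukotriene A4 hydrolase, averaged 0.513 ± 0.0687 CPM with both RNAi and 234 ± 8.83 CPM with cco-1 RNAi (-7.28). T21H3.1 averaged 1.05 ± 0.174 CPM with both RNAi and 680.1 ± 25.2 CPM with cco-1 RNAi (-8.38). Of 21 other lysosomal hydrolase genes 11 fell and 6 rose, with a median of -0.41. The lipase gene lipl-5 stood at 1.05, 1.21 and 1.10 CPM with both RNAi, against 178, 205 and 192 CPM with cco-1 RNAi (-6.50). gba-1, a glucocerebrosidase gene, averaged 0.439 CPM with both RNAi and 37.8 CPM with cco-1 RNAi (-4.76), and nuc-1, which encodes a nuclease that digests DNA of dead cells and food, 4.21 CPM with both RNAi and 32.8 CPM with cco-1 RNAi (-2.70).

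The V-ATPase, a proton pump of lysosomes and cell membranes, showed no common direction. Of 22 subunit genes 7 rose, 8 fell and 7 did not pass, with a median of 0.01. Its intestinal subunit gene vha-6 was far outside the range of the others, at 10.3, 11.5 and 9.79 CPM with both RNAi, against 356, 313 and 329.7 CPM with cco-1 RNAi (-4.85, SE 0.0762). The next most negative change in the list was that of vha-7 (-0.80), and the most positive that of the neuronal subunit gene unc-32 (0.69).

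Autophagy genes rose more often than they fell. Of 28, 19 rose, 4 fell and 5 did not pass, with a median of 0.58. The Atg8 gene lgg-1, whose product marks autophagosomes, stood at 644, 716 and 703 CPM with both RNAi, against 252, 261 and 262 CPM with cco-1 RNAi (1.41, SE 0.0512). The cargo receptor gene sqst-1 averaged 928 CPM with both RNAi and 333 CPM with cco-1 RNAi (1.48), and atg-2, which acts in the growth of autophagosomes, rose by 2.11. hlh-30, the worm counterpart of the lysosome and autophagy regulator TFEB, chosen after its values were seen, averaged 239 ± 2.72 CPM with both RNAi and 84.2 ± 10.7 CPM with cco-1 RNAi (1.504).

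**Figure D3:**
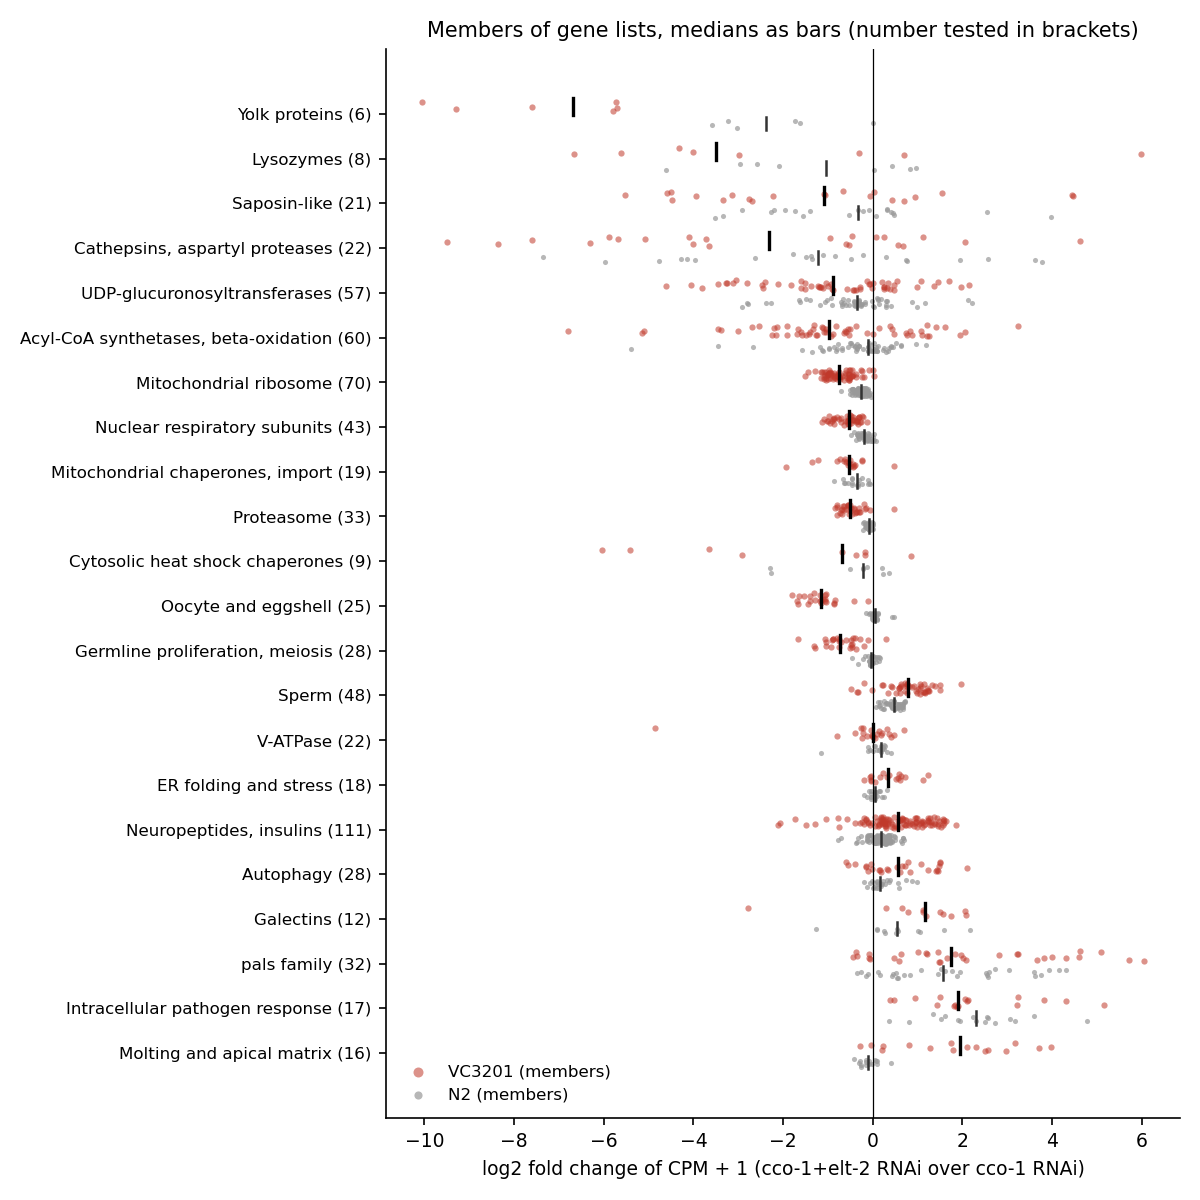
Each point is 1 gene of a list, placed by its log2 fold change of CPM + 1, both RNAi over cco-1 RNAi, in VC3201 (red) and below it in N2 (grey); bars are list medians. Yolk proteins lie farthest left in VC3201, with a median of -6.69, and the molting list has a median of 1.95 in VC3201 and -0.11 in N2.

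Genes of defence split by family. Of 8 lysozyme genes 6 fell and 2 rose, lys-3 among them. ilys-5 stood at 0.231, 0.318 and 0.336 CPM with both RNAi, against 118, 143 and 133 CPM with cco-1 RNAi (-6.67). lys-1 averaged 4.55 CPM with both RNAi and 270.1 CPM with cco-1 RNAi (-5.61), and lys-2 fell as well (-4.33). Of 21 saposin-like genes, which include antimicrobial peptides of the gut, 13 fell and 6 rose. spp-3 and spp-8 had log2 fold changes of -3.95 and -4.58. In the other direction, spp-9 was at 20.9, 21.3 and 21.9 CPM with both RNAi and had 0 reads in each library with cco-1 RNAi. By the lower end of the 95% exact Poisson interval, for counting error only, it was at least 313-fold higher with both RNAi. Of 111 C-type lectin genes 58 fell and 36 rose, beside 44.6% and 36.5% of all genes tested. The lectin gene clec-50 averaged 1.37 ± 0.217 CPM with both RNAi and 240 ± 5.87 CPM with cco-1 RNAi (-6.67). In the same family, clec-150 averaged 2.02 CPM with both RNAi and 233 CPM with cco-1 RNAi (-6.27). Galectins, sugar-binding proteins, rose in 11 of 12 cases with a median of 1.16. lec-6 averaged 1034 CPM with both RNAi and 304 CPM with cco-1 RNAi (1.76), whereas lec-9, which fell, averaged 31.98 CPM with both RNAi and 226 CPM with cco-1 RNAi (-2.79).

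The intracellular pathogen response is a program of genes that worms switch on during infection by microsporidia or a virus. All 17 of its listed genes that were tested rose, with a median of 1.90. eol-1 (chromosome V, 13979462 to 13980907) stood at 67.2, 68.2 and 73.0 CPM with both RNAi, against 0.944, 0.837 and 1.16 CPM with cco-1 RNAi (5.16, SE 0.100). skr-4, a gene for a component of a ubiquitin ligase in this program, averaged 87.6 CPM with both RNAi and 19.3 CPM with cco-1 RNAi (2.13). Of the pals family, which shares 6 genes with that list, 26 of 32 rose and 3 fell, with a median of 1.75. With the normalization partly undone, 26 rose and 0 fell. F22G12.1 (pals-14) and dct-3 (pals-39) rose by 4.62 and 5.09 on the log2 scale. Reads of similar pals genes may be split among them.

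Nuclear genes for mitochondrial proteins fell together. Of 19 genes for mitochondrial chaperones, proteases and protein import, which include effectors of the mitochondrial unfolded protein response, 18 fell and 1 rose, with a median of -0.52. The chaperonin gene hsp-60 (chromosome III, 1619742 to 1625803) stood at 36.4, 41.7 and 38.0 CPM with both RNAi, against 146, 150.2 and 157.7 CPM with cco-1 RNAi (-1.94, SE 0.0673, adjusted p = 1.19e-20). tomm-22, for an import receptor of the outer membrane, averaged 25.1 CPM with both RNAi and 60.6 CPM with cco-1 RNAi (-1.23). hsp-6, the mitochondrial Hsp70 gene, chosen after its values were seen, averaged 335 ± 10.8 CPM with both RNAi and 478 ± 23.6 CPM with cco-1 RNAi (-0.51), and ymel-1, a protease gene and the 1 riser, 52.2 ± 3.25 CPM with both RNAi and 37.3 ± 3.18 CPM with cco-1 RNAi (0.47).

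Of 43 nuclear subunit genes of the respiratory chain and ATP synthase 42 fell and 0 rose, with a median of -0.53 and a range of -1.12 to -0.13. For example, nuo-6, for a complex I subunit, averaged 52.1 CPM with both RNAi and 97.7 CPM with cco-1 RNAi (-0.89). Of 70 mitochondrial ribosomal protein genes 67 fell and 0 rose (median -0.76). mrpl-54 stood at 4.54, 4.34 and 4.81 CPM with both RNAi, against 14.3, 15.3 and 14.9 CPM with cco-1 RNAi (-1.51). Of the 11 subunits encoded in mitochondrial DNA 5 fell and 6 did not pass (median -0.27). ctb-1, for cytochrome b, averaged 325 CPM with both RNAi and 503 CPM with cco-1 RNAi (-0.62). Without replicate 2 of the group with both RNAi, 3 of the 11 fell. Cytosolic ribosomal protein genes rose in 16, fell in 29 and did not pass in 36 of 81 cases, with a median of -0.02. Their summed level was nonetheless higher, at 160500 to 167700 CPM with both RNAi, against 144000 to 149900 CPM with cco-1 RNAi. The quantile normalization fixes the most abundant values by rank, as for rps-8 at 19460 CPM in each library with both RNAi.

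Lipid metabolism changed in both directions. Of 60 acyl-CoA synthetase and beta-oxidation genes 41 fell and 17 rose, with a median of -0.98. acdh-1, for an acyl-CoA dehydrogenase of propionate breakdown, stood at 2.99, 3.38 and 3.28 CPM with both RNAi, against 467, 468 and 476 CPM with cco-1 RNAi (-6.81, SE 0.0721). acdh-2 and the enoyl-CoA hydratase gene ech-7 had log2 fold changes of -5.14 and -5.10. acs-11, an acyl-CoA synthetase gene, averaged 214 CPM with both RNAi and 50.4 CPM with cco-1 RNAi (2.07), and acs-2, chosen after its values were seen, 626 ± 52.0 CPM with both RNAi and 64.8 ± 5.24 CPM with cco-1 RNAi (3.25). Of 18 genes of fatty acid synthesis 8 rose and 9 fell. The elongase genes elo-6 and elo-5 had log2 fold changes of -2.04 and -1.86, and the stearoyl-CoA desaturase gene fat-6 averaged 89.3 CPM with both RNAi and 274 CPM with cco-1 RNAi (-1.60).

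Detoxification genes fell more often than they rose in the transferase families. Of 57 UDP-glucuronosyltransferase genes 34 fell and 15 rose (median -0.88), with ugt-22 at 0.150, 0.121 and 0.312 CPM with both RNAi, against 29.4, 27.4 and 27.6 CPM with cco-1 RNAi (-4.61). Of 37 glutathione S-transferase genes 24 fell and 5 rose (median -0.61), and with the normalization partly undone 8 rose. gst-22 was a riser, at 102 CPM with both RNAi and 4.54 CPM with cco-1 RNAi (4.22). Among 55 cytochrome P450 genes 24 fell and 17 rose, beside 44.6% and 36.5% of all genes tested. The 4 with the smallest p-values, cyp-33C8, cyp-13A5, cyp-33C4 and cyp-36A1, all rose. cyp-33C8 stood at 391, 406 and 396 CPM with both RNAi, against 9.84, 11.8 and 10.8 CPM with cco-1 RNAi (5.08), and cyp-13A5 averaged 157.7 CPM with both RNAi and 3.01 CPM with cco-1 RNAi (5.31).

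Protein quality control differed by compartment. Of 9 cytosolic heat shock chaperone genes 7 fell and 1 rose, with a median of -0.69. The small heat shock gene hsp-16.41 stood at 0.780, 0.591 and 0.709 CPM with both RNAi, against 109.8, 120.2 and 103 CPM with cco-1 RNAi (-6.05, SE 0.136). hsp-16.2 averaged 0.761 CPM with both RNAi and 73.3 CPM with cco-1 RNAi (-5.41), and the inducible hsp-70 4.097 CPM with both RNAi and 37.2 CPM with cco-1 RNAi (-2.91). The hsp-16 genes have close copies among which reads may be split. Of 33 proteasome subunit genes 31 fell and 1 rose, with a median of -0.51 and a range of -0.85 to 0.47. pbs-6, for a subunit of the catalytic core, averaged 124 CPM with both RNAi and 216 CPM with cco-1 RNAi (-0.79). Of 18 genes of endoplasmic reticulum folding and stress 12 rose and 1 fell (median 0.34). They include the stress kinase gene pek-1 (1.24) and the disulfide isomerase gene pdi-2, at 1450, 1465 and 1396 CPM with both RNAi, against 636, 658 and 680.4 CPM with cco-1 RNAi (1.13).

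Of 18 transcription factor genes of stress and longevity 11 rose and 4 fell, with a median of 0.43. pha-4, for the FoxA factor of the pharynx and gut, stood at 64.05, 59.9 and 61.6 CPM with both RNAi, against 9.97, 7.51 and 11.2 CPM with cco-1 RNAi (2.59). cebp-1 and zip-2, for bZIP factors that act when translation or other core processes are disturbed, rose by 2.54 and 1.73. Of 174 nuclear hormone receptor genes 73 rose and 53 fell. nhr-21 averaged 81.9 CPM with both RNAi and 7.20 CPM with cco-1 RNAi (3.34), and nhr-114, which acts in the intestine, 10.8 CPM with both RNAi and 78.0 CPM with cco-1 RNAi (-2.75). Of 7 other GATA factor genes 2 rose and 3 fell. elt-7, which works beside elt-2 in the gut, averaged 3.09 CPM with both RNAi and 5.99 CPM with cco-1 RNAi (-0.75), while the epidermal elt-3 averaged 135 CPM with both RNAi and 78.6 CPM with cco-1 RNAi (0.78).

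Molting genes rose together, while cuticle collagens and hedgehog-related genes changed in both directions. Of 16 molting and apical matrix genes 14 rose and 0 fell, with a median of 1.95. mlt-11 (chromosome V, 20667205 to 20678537), for a secreted protease inhibitor needed for molting, stood at 182.4, 199 and 195 CPM with both RNAi, against 13.9, 8.78 and 11.2 CPM with cco-1 RNAi (3.99, SE 0.161). noah-1, for an apical matrix protein, averaged 84.3 CPM with both RNAi and 8.53 CPM with cco-1 RNAi (3.17). Of 138 cuticle collagen genes 71 rose and 39 fell (median 0.25), with dpy-10 at 28.01 CPM with both RNAi and 6.07 CPM with cco-1 RNAi (2.04), and col-149 at 8.30 CPM with both RNAi and 59.0 CPM with cco-1 RNAi (-2.69). Reads of similar collagen genes may be split among them. Of 58 hedgehog-related genes, many of them expressed in the epidermis, 40 rose and 12 fell, with a median of 0.58. wrt-10 averaged 28.2 CPM with both RNAi and 2.97 CPM with cco-1 RNAi (2.88), and grd-3 averaged 34.04 CPM with both RNAi and 172 CPM with cco-1 RNAi (-2.29). Summed over their list, molting genes took 1120 to 1155 CPM with both RNAi, against 388 to 413 CPM with cco-1 RNAi. The cuticle collagen list summed to 35290 to 38440 CPM with both RNAi, against 37910 to 40760 CPM with cco-1 RNAi, so the sums overlapped and did not share the direction of the molting sum.

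Neuronal genes also rose more often than they fell. Of 111 neuropeptide and insulin-like peptide genes 71 rose and 10 fell (median 0.56), and of 21 neuron markers 11 rose and 1 fell (median 0.30). unc-18, for a syntaxin-binding protein of synapses, stood at 241, 259 and 259 CPM with both RNAi, against 63.8, 56.2 and 62.1 CPM with cco-1 RNAi (2.04), and egl-3, for an enzyme that cuts neuropeptide precursors, averaged 374 CPM with both RNAi and 107 CPM with cco-1 RNAi (1.80). The neuron marker sum was 1707 to 1773 CPM with both RNAi, against 723 to 771 CPM with cco-1 RNAi. Some markers of single transmitters were low in both groups, as tph-1 was at 0.465 CPM with both RNAi and 0.410 CPM with cco-1 RNAi.

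Small families of redox and metal defence were split. Of 10 superoxide dismutase, catalase and peroxiredoxin genes 7 fell and 3 rose (median -0.53). The catalase gene ctl-2 stood at 8.21, 9.63 and 9.88 CPM with both RNAi, against 68.1, 72.2 and 75.9 CPM with cco-1 RNAi (-2.84), and the cytosolic superoxide dismutase gene sod-1 averaged 96.0 CPM with both RNAi and 194 CPM with cco-1 RNAi (-1.002), while sod-4, for a secreted or membrane-bound form, rose by 1.10. Of 7 cadmium-responsive and metallothionein genes 4 fell and 3 rose. cdr-4 averaged 539.9 CPM with both RNAi and 109 CPM with cco-1 RNAi (2.31), and its change in N2 was 0.03. mtl-2, a metallothionein gene, was left with 1 read in all in the libraries with both RNAi, and the ratio of cco-1 RNAi over both RNAi was about 452 (95% exact Poisson interval 81.1 to 17850).

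Of 30 genes of RNA interference itself, which both groups underwent, 16 fell and 8 rose (median -0.17). Over all genes tested, 44.6% fell and 36.5% rose. The Argonaute genes ergo-1 and nrde-3 averaged 135 CPM with both RNAi and 259.9 CPM with cco-1 RNAi (-0.94), and 11.2 CPM with both RNAi and 29.0 CPM with cco-1 RNAi (-1.31). Argonaute genes also rose: ppw-2 averaged 282 CPM with both RNAi and 127 CPM with cco-1 RNAi (1.14), and sago-1 averaged 140 CPM with both RNAi and 66.8 CPM with cco-1 RNAi (1.06). In N2 the changes of ergo-1, nrde-3 and ppw-2 were -0.02, 0.00 and 0.02. Their part in the knockdown of either target was not tested.

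Regulators of the mitochondrial unfolded protein response rose in 3 and fell in 2 of 9 cases. The histone demethylase gene jmjd-3.1 averaged 24.01 CPM with both RNAi and 7.94 CPM with cco-1 RNAi (1.48), and the homeobox gene dve-1 averaged 43.03 CPM with both RNAi and 17.4 CPM with cco-1 RNAi (1.27). The mitochondrial peptide exporter gene haf-1 averaged 2.03 CPM with both RNAi and 6.65 CPM with cco-1 RNAi (-1.33), and ubl-5, for a partner of DVE-1, averaged 5.32 CPM with both RNAi and 11.01 CPM with cco-1 RNAi (-0.93). Of 12 genes of mitochondrial fission, fusion and mitophagy 9 fell and 2 rose (median -0.34). The risers were the mitophagy receptor gene dct-1, at 58.0, 48.6 and 48.3 CPM with both RNAi, against 12.7, 11.6 and 12.7 CPM with cco-1 RNAi (1.98), and R102.5 (allo-1), for an adaptor in the removal of paternal mitochondria, at 418 CPM with both RNAi and 153 CPM with cco-1 RNAi (1.44).

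Of 19 genes of the methionine cycle and phosphatidylcholine synthesis 11 fell and 7 rose (median -0.39). sams-5, an S-adenosylmethionine synthetase gene, averaged 84.2 CPM with both RNAi and 16.09 CPM with cco-1 RNAi (2.32), and pmt-1, for a phosphoethanolamine methyltransferase, averaged 770.1 CPM with both RNAi and 348 CPM with cco-1 RNAi (1.14). The cystathionine enzyme genes cth-1 and cbs-1 changed by -1.40 and -1.31. Of 51 transthyretin-like genes 25 fell and 20 rose, with ttr-26 at 274, 263 and 255 CPM with both RNAi, against 10.8, 11.3 and 10.8 CPM with cco-1 RNAi (4.47), and ttr-44 at 4.92 CPM with both RNAi and 29.6 CPM with cco-1 RNAi (-2.37). Of 224 F-box genes of the fbxa, fbxb and fbxc families 95 fell and 50 rose (median -0.17). Beside the lists of this paragraph, the shares over all genes tested were 44.6% lowered and 36.5% raised. fbxa-24 averaged 59.4 CPM with both RNAi and 1.11 CPM with cco-1 RNAi (4.85), and fbxa-143 averaged 34.7 CPM with both RNAi and 1.28 CPM with cco-1 RNAi (3.97).

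Markers of germ cells and stage moved as well. Of 25 oocyte and eggshell genes 24 fell and 0 rose, with a median of -1.16. Their summed level was 7771 to 8145 CPM with both RNAi, against 15670 to 16490 CPM with cco-1 RNAi. oma-2, for an oocyte maturation factor, stood at 202, 195 and 206 CPM with both RNAi, against 656, 647 and 631 CPM with cco-1 RNAi (-1.68, SE 0.0461). Of 28 germline proliferation and meiosis genes 27 fell and 1 rose (median -0.73), with summed levels of 4320 to 4556 CPM with both RNAi, against 6807 to 7161 CPM with cco-1 RNAi. Of 48 sperm genes 42 rose and 3 fell, with a median of 0.79 and summed levels of 4622 to 5366 CPM with both RNAi, against 2479 to 2756 CPM with cco-1 RNAi. With the normalization partly undone, 43 sperm genes rose and 0 fell, and without replicate 3 of cco-1 RNAi 1 fell. gsp-3, a sperm phosphatase gene, averaged 236 CPM with both RNAi and 82.8 CPM with cco-1 RNAi (1.498). In hermaphrodites sperm are made before oocytes, yolk is an adult product, and molting genes are larval. The labels give the same stage range to all groups, and the part of stage or germline content in the yolk, molting and other changes was not tested.

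Intestine markers gave no common direction. Of 15 tested, 5 rose, 8 fell and 2 did not pass (median -0.34), and their summed level was 3409 to 3812 CPM with both RNAi, against 2694 to 2886 CPM with cco-1 RNAi. The gut esterase gene ges-1 averaged 3.31 CPM with both RNAi and 11.6 CPM with cco-1 RNAi (-1.55), and the sodium-proton exchanger gene nhx-2 5.63 CPM with both RNAi and 33.4 CPM with cco-1 RNAi (-2.38), while eps-8, for a protein of the gut brush border, averaged 418 CPM with both RNAi and 112 CPM with cco-1 RNAi (1.90). Of 23 muscle markers 6 rose and 11 fell, and their summed levels overlapped between the groups. In RNA of whole worms, fewer cells of a type and less RNA per cell cannot be told apart.

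**Figure D4:**
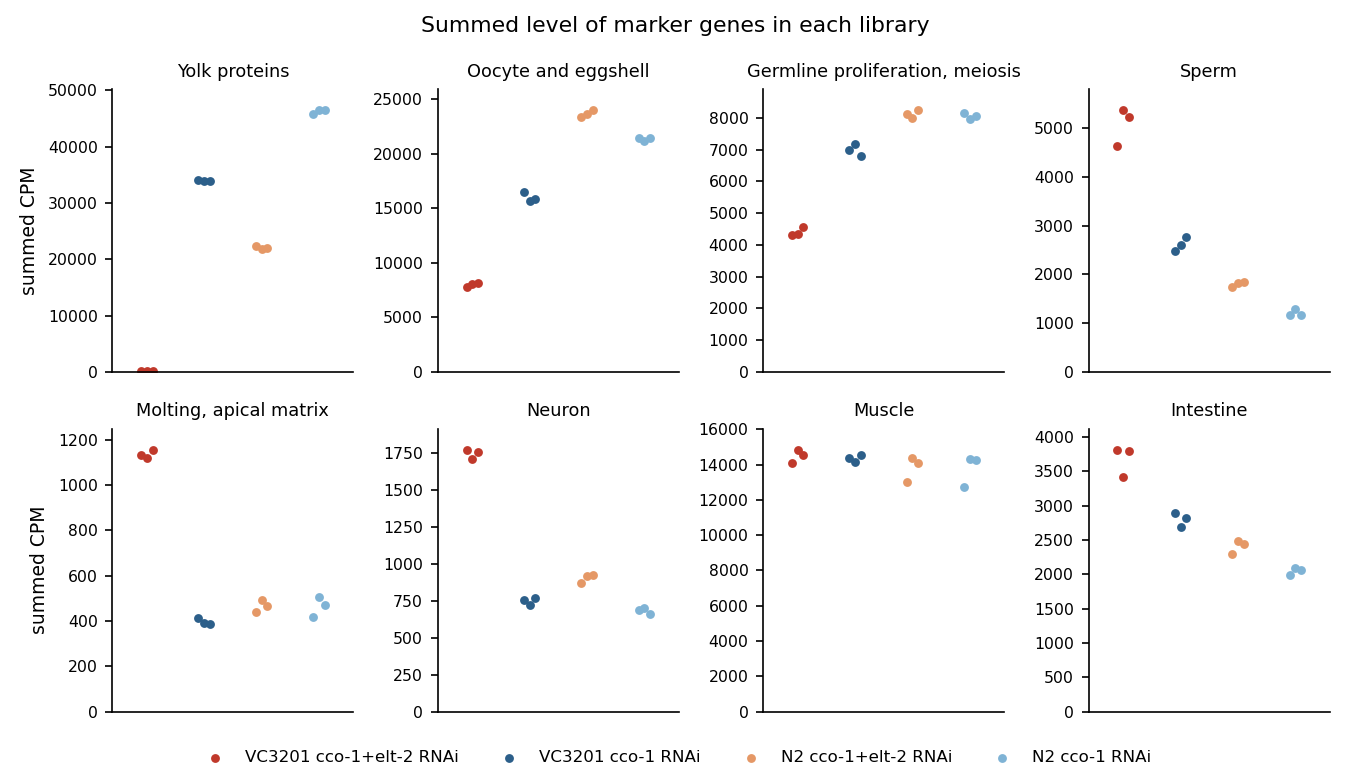
Summed CPM of each marker list in each library (points) for VC3201 with both RNAi, VC3201 with cco-1 RNAi, N2 with both RNAi and N2 with cco-1 RNAi; every y axis starts at 0. In VC3201 the yolk sum was 234 to 262 CPM with both RNAi against 33910 to 34180 CPM with cco-1 RNAi, and in N2 21920 to 22310 CPM with both RNAi against 45780 to 46540 CPM with cco-1 RNAi.

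The same comparison in N2, which shares no library with that in VC3201, gave 2563 raised and 2401 lowered genes, together 34.1%. Of the genes raised in VC3201, 40.9% also rose in N2, and of those raised in N2, 84.8% also rose in VC3201. For lowered genes these shares were 30.3% of those in VC3201 and 82.0% of those in N2. Opposite calls were made for 169 genes that rose in VC3201 and fell in N2, and for 197 that fell in VC3201 and rose in N2. Across the 14561 genes, the log2 fold changes in the strains had a Pearson r of 0.70. This is a description, since genes are not independent and all libraries were normalized together.

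The difference between the strains was itself tested, as the VC3201 change minus the N2 change. It passed the threshold for 9711 genes (66.7%), with 4385 positive (30.1%) and 5326 negative (36.6%). At least 2-fold, 1403 were positive (9.64%) and 1189 negative (8.17%), together 17.8%. With no fold minimum and the normalization partly undone, 5060 were positive and 4934 negative. The excess of negative differences thus depended on scaling. Of the 5316 genes raised in VC3201, 4080 had a positive difference, and of the 6491 lowered there, 5078 had a negative one. The VC3201 change is part of the difference, so genes picked by that change are tilted to its sign in advance. Those counts are therefore no separate evidence of larger changes in VC3201. T22F3.11 had the largest positive difference (5.72, adjusted p = 3.22e-21), and in N2 it averaged 38.6 ± 3.77 CPM with both RNAi and 3.02 ± 0.759 CPM with cco-1 RNAi. In N2, lys-3 averaged 2.18 CPM with both RNAi and 0.850 CPM with cco-1 RNAi, and its difference was 5.14. mlt-11 averaged 38.1 ± 6.95 CPM with both RNAi and 37.3 ± 12.2 CPM with cco-1 RNAi in N2, and its difference was 3.92.

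The most negative differences were those of the yolk genes vit-2 (-6.47), vit-5 (-6.05), vit-1 (-5.86) and vit-6 (-5.71). In N2, vit-2 averaged 1908 CPM with both RNAi and 22700 CPM with cco-1 RNAi. vit-6 stood at 19460 CPM in N2 both with and without elt-2 RNAi, a value set by its rank, so a change there could not be measured. In N2, cpr-5 averaged 52.6 ± 3.38 CPM with both RNAi and 939 ± 61.8 CPM with cco-1 RNAi (difference -5.37), and acdh-1 averaged 195 CPM with both RNAi and 586 CPM with cco-1 RNAi (difference -5.22). In N2 the means of lys-2 were 175 CPM with both RNAi and 172 CPM with cco-1 RNAi, which did not pass, and its strain difference was -4.35.

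**Figure D5:**
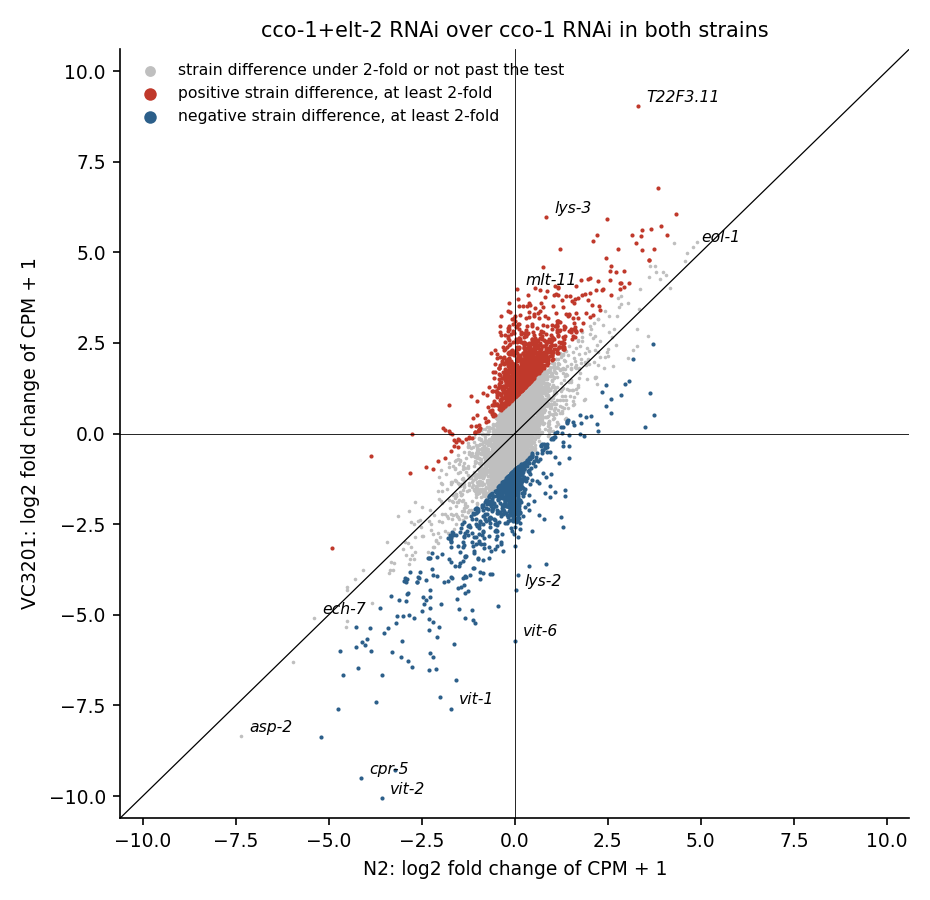
Log2 fold change of CPM + 1, both RNAi over cco-1 RNAi, in VC3201 (y axis) and in N2 (x axis) for each gene tested, with the line of equal change. Coloured points have a strain difference of at least 2-fold at an adjusted p under 0.05; T22F3.11 and lys-3 lie above the line, with differences of 5.72 and 5.14, and vit-2, vit-6 and cpr-5 below it.

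Other large changes were closer in size. asp-2 changed by -8.35 in VC3201 and -7.35 in N2 (adjusted p of the strain difference 8.25e-10). ech-7 changed by -5.10 in VC3201 and -5.39 in N2, and the strain difference did not pass (0.30, adjusted p = 0.0549). For eol-1 the changes were 5.16 in VC3201 and 4.78 in N2 (difference 0.38, adjusted p = 0.0206). elt-2 itself showed no strain difference past the threshold (-0.38, adjusted p = 0.266), with 8.35 CPM with both RNAi and 13.8 CPM with cco-1 RNAi in N2.

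Among lists, the 17 pathogen response genes had medians of 1.90 in VC3201 and 2.297 in N2, with 6 positive and 6 negative strain differences. Over all genes tested, 30.1% of strain differences were positive and 36.6% negative past the threshold. The counts of the pathogen response genes lie near these shares. The strain difference was positive for 12 of 16 molting genes, and of the 16, 1 rose and 1 fell in N2. It was negative for all 25 oocyte and eggshell genes, of which 3 rose and 1 fell in N2. It was also negative for 57 of 70 mitochondrial ribosomal protein genes and 28 of 33 proteasome genes. The subunits encoded in mitochondrial DNA went the other way: all 11 passed in N2 (median -0.76), and 8 had a positive strain difference.

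VC3201 worms were also compared with and without elt-2 RNAi in the absence of cco-1 RNAi, again with no library shared. In that comparison 36.4% of genes rose and 49.4% fell, together 85.8%. Of the genes raised on cco-1 RNAi, 86.5% also rose without it, and of those lowered, 91.4% also fell. As shares of the genes called without cco-1 RNAi, these overlaps were 86.7% and 82.4%. The Pearson r of the log2 fold changes across genes was 0.91. The difference, the change on cco-1 RNAi minus the change without it, passed for 5986 genes (41.1%), with 3056 positive (21%) and 2930 negative (20.1%). This balance depended on scaling: with the normalization partly undone, 2305 were positive and 3675 negative, so positive calls made up 38.5% of them rather than 51.1%.

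The genes with the largest positive differences had lower means with cco-1 RNAi than on control bacteria. pud-3 averaged 0.490 CPM with both RNAi and 11.7 CPM with cco-1 RNAi, while it averaged 0.516 CPM with elt-2 RNAi and 398 CPM on control bacteria (difference 4.94). vit-4 averaged 0.492 CPM with both RNAi and 78.3 CPM with cco-1 RNAi, and 0.967 CPM with elt-2 RNAi and 2864 CPM on control bacteria (difference 4.78). vit-3 had a difference of 4.75, pud-4 of 4.30, and the desaturase genes fat-7 and fat-5 of 3.64 and 3.47. With elt-2 RNAi, pud-4 and fat-7 were below 1 CPM on either background. On cco-1 RNAi they then averaged 0.277 and 0.0312 CPM, and without it 0.394 and 0.0875 CPM. On the CPM + 1 scale their differences largely follow the levels without elt-2 RNAi. fat-5 averaged 1.73 CPM with both RNAi and 2.31 CPM with cco-1 RNAi (-0.27, adjusted p = 0.00999). That call was lost with the normalization partly undone (-0.01), with a pseudocount of 5 (-0.12), and without replicate 2 of cco-1 RNAi (-0.18) or replicate 1 of both RNAi (-0.22).

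Negative differences were of more than 1 kind. hsp-16.41 was lowered on either background, and it stood higher with cco-1 RNAi than on control bacteria: it averaged 0.693 CPM with both RNAi and 111 CPM with cco-1 RNAi, and 0.692 CPM with elt-2 RNAi and 7.16 CPM on control bacteria (difference -3.78). hsp-16.2 had a difference of -3.50. Other genes rose with elt-2 RNAi in the absence of cco-1 RNAi and changed less, or not past the threshold, on it. The collagen gene col-39 averaged 333 CPM with both RNAi and 393 CPM with cco-1 RNAi, but 241 CPM with elt-2 RNAi and 21.2 CPM on control bacteria (difference -3.68). F33H12.7 averaged 40.9 CPM with both RNAi and 31.4 CPM with cco-1 RNAi, and 28.3 CPM with elt-2 RNAi and 0.749 CPM on control bacteria (difference -3.71). Y37H2A.14 and Y47D7A.13 had differences of -3.996 and -3.60. The change of col-39 on cco-1 RNAi (-0.24, adjusted p = 0.0362) was lost with no intensity trend and on leaving out replicate 2 (-0.17) or 3 (-0.23) of cco-1 RNAi, or replicate 1 (-0.22) or 3 (-0.21) of both RNAi.

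By list, the pathogen response genes had a median change of 1.90 on cco-1 RNAi and 3.20 without it, and all 17 had a negative difference. Over all genes tested, 21% of these differences were positive and 20.1% negative past the threshold. Cuticle collagens had medians of 0.25 on cco-1 RNAi and 1.51 without it, with 90 of 138 differences negative. Sperm genes had medians of 0.79 on cco-1 RNAi and 1.84 without it, with 40 of 48 negative. Subunits encoded in mitochondrial DNA had medians of -0.27 on cco-1 RNAi and -0.98 without it, and 9 of 11 differences were positive. The median difference of each of these lists had the same sign with the normalization partly undone.

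The authors listed 517 genes as dependent on ELT-2, chosen on N2 libraries, so no VC3201 library entered the choice. Of the 470 tested, 292 fell and 84 rose in VC3201 with both RNAi, with a median of -0.48, against -0.10 over all genes tested. Of the genes that the authors listed as raised by cco-1 RNAi in N2, also without a VC3201 library, 1708 were tested, and 1071 rose and 409 fell in VC3201 with both RNAi (median 0.63). Of the 719 genes that the authors listed as dependent on ATFS-1, 658 were tested, and 312 rose and 218 fell. That list was chosen with the VC3201 libraries on cco-1 RNAi, which also serve here, so its counts are given without a reading.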

How the data were processed

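PolyA-enriched RNA of whole worms was sequenced in 24 libraries of 8 groups, of which 6 libraries carry the main comparison. The submitters' processing notes name STAR 2.73a, edgeR 3.24.3 and WBcel235 (ce11). Counter and annotation: not given in the sources used here. As deposited by the authors, CPM of 16927 genes had been quantile-normalized over all libraries, and every column summed to 1000373. The authors also deposited log2 fold changes, adjusted p-values and dependency scores, used only where the authors' deposited table or lists are named.

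Raw counts had been planned for, but the table holds CPM. Genes were therefore kept by group mean (1 CPM or more in some group), transformed to log2(CPM + 1) and fitted with limma 3.58.1 in R 4.3.3: 8 group means over 24 libraries, 16 residual degrees of freedom, empirical Bayes with an intensity trend, 2-sided tests, Benjamini-Hochberg adjustment. Strain and background differences were contrasts of the same fit. Tested on simulated data of 14561 genes, the comparison of both RNAi with cco-1 RNAi in VC3201 recovered 97% of 67 genes changed 1.5-fold. It recovered 100% of 67 genes changed 2-fold, with 16 false calls. For the strain difference these shares were 83.6% and 94%, with 11 false calls. The simulation changed few genes, all above a minimum level, and used normal noise without quantile normalization. Its false calls therefore do not measure those in the data, where most genes were called.

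Reads were ranked back from tied low values. They gave the reads at 1 CPM and, divided by median-of-ratios size factors, the scale on which the normalization was partly undone. Intervals cover counting error only. Between replicates the chi-square per gene was 1.25 to 1.76, so no library was taken as a copy of another. These values do not tell whether the replicates of a group were grown apart.

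Named genes were the targeted genes, the 12 raised and 12 lowered most at a mean of at least 10 CPM with no overlap of libraries, up to 4 members of each list by p-value, and 6 genes for each sign of each difference. The text names some of them. The comparison, the 45 gene lists and the rule were chosen with earlier results of these data known. Lists are described by counts and medians, with no test of their own. Positions are those of Ensembl's WBcel235 annotation, and current symbols stand in brackets. Alternatives were pseudocounts of 0.5 and 5, no filter, a replicate block, fits of the compared groups alone, leaving out each library, no intensity trend, a 2-fold minimum and the partly undone normalization. Promoter sequences were not analysed here.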

Additional observations from a re-analysis of the deposited data

Results flagged for a closer look

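The effect of elt-2 RNAi on cco-1 RNAi differed between VC3201 and N2 by a test of the difference for 4385 genes with a positive and 5326 with a negative value. The largest positive values were those of T22F3.11 (5.72), lys-3 (5.14), mlt-11 (3.92), the cytochrome P450 gene cyp-33C8 (3.87), ZK896.4 (3.82) and the cadherin gene cdh-10 (3.74). cdh-10 averaged 50.4 ± 5.18 CPM with both RNAi and 3.26 ± 0.485 CPM with cco-1 RNAi in VC3201, and 8.01 ± 0.572 CPM with both RNAi and 9.07 ± 1.70 CPM with cco-1 RNAi in N2. ZK896.4 averaged 132 ± 1.33 CPM with both RNAi and 4.55 ± 0.427 CPM with cco-1 RNAi in VC3201, and 9.03 ± 0.112 CPM with both RNAi and 4.93 ± 0.177 CPM with cco-1 RNAi in N2. The most negative values were those of vit-2 (-6.47), vit-5 (-6.05), vit-1 (-5.86), vit-6 (-5.71), cpr-5 (-5.37) and ZC416.6 (-5.27).

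The effect of elt-2 RNAi in VC3201 also differed between worms on cco-1 RNAi and worms without it, with 3056 positive and 2930 negative differences. The largest positive values were those of pud-3 (4.94), vit-4 (4.78), vit-3 (4.75), pud-4 (4.30), fat-7 (3.64) and fat-5 (3.47). The most negative were those of Y37H2A.14 (-4.0), hsp-16.41 (-3.78), F33H12.7 (-3.71), col-39 (-3.68), Y47D7A.13 (-3.60) and hsp-16.2 (-3.50). fat-7 had 1 read in all in the libraries with both RNAi, so its fitted change on cco-1 RNAi understates the ratio. That ratio was about 336 for cco-1 RNAi over both RNAi (95% exact Poisson interval 60.4 to 13280). Without cco-1 RNAi, fat-7 averaged 0.0875 CPM with elt-2 RNAi and 50.65 CPM on control bacteria. Its fitted difference therefore does not show that the ratios differed.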

How the results depend on the processing

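Counts of raised and lowered genes stayed within 1.5 times their value under pseudocounts of 0.5 and 5, no filter and no intensity trend. They also did in fits of the compared groups alone and with the partly undone normalization. The latter gave 6067 raised and 5971 lowered genes, and 5060 positive and 4934 negative strain differences. The excess of lowered genes and of negative strain differences was thus not kept on that scale. A minimum of 2-fold change left 2131 raised and 1721 lowered genes. Leaving out 1 library at a time gave 5125 to 5213 raised and 6266 to 6340 lowered genes, 4223 to 4309 positive and 5114 to 5259 negative strain differences, and 2745 to 2962 positive and 2659 to 2816 negative background differences. Same-numbered libraries of the groups had correlations of deviations of 0.10, 0.15 and -0.085, and the others had -0.164 to 0.097. With 3 libraries a group, these values cannot decide whether the numbers pair the samples. A replicate block gave 5330 raised and 6501 lowered genes, 4395 positive and 5336 negative strain differences, and 3052 positive and 2929 negative background differences. Among single genes, no alternative reversed a called direction, 11 values lost and 5 gained the threshold, all of fat-5, col-39, atp-6, atfs-1 and Y47D7A.13. Of the counts of list members 1156 stayed within 1.5 times and 14 did not, each of these 14 a count of 5 or fewer. Values of the most abundant genes were fixed by rank. At 1 CPM a library with cco-1 RNAi held 17 to 19 reads, which limits the precision of low levels.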
